A study of Homo sapiens with 12 samples.

Results

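The 44 nuclear genes of the KEGG pathway 00970, aminoacyl-tRNA biosynthesis, were described in 2 human acute myeloid leukemia (AML) cell lines with and without honokiol. Members were the genes whose pathway annotation in the deposited table held 00970 and that did not lie on the mitochondrial chromosome, which gave 44 of the 36866 genes in the table. They comprised 18 cytosolic aminoacyl-tRNA synthetases, 17 mitochondrial synthetases whose symbols end in ARS2, 2 synthetases that serve both compartments (GARS1 and KARS1), TARS3, and 6 genes that are no synthetases (GATB, GATC, MTFMT, PSTK, QRSL1 and SEPSECS). This rule reads the annotation of the table and not its measured values.

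THP-1 and U-937, both monocytic AML lines with a complex karyotype, were treated for 24 h with honokiol, a biphenolic compound of Magnolia bark, or with 0.1% DMSO as the vehicle. Poly(A) RNA was sequenced in 12 libraries, 3 for each of THP-1 DMSO, THP-1 honokiol, U-937 DMSO and U-937 honokiol. The labels give doses of 20 or 35 μM and do not tie them to a line, so no dose can be given for these libraries. In the study's other assays the dose was set for each line, lower for THP-1 than for U-937, so the dose may differ between the lines here too. Each line stands for 1 patient. Since the labels do not say that the replicates were separate cultures, the p-values measure only the spread between these libraries, which may be technical.

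Each aminoacyl-tRNA synthetase joins an amino acid to the tRNAs that carry its anticodon, the step that fixes the genetic code. Animal cells run this chemistry in parallel, with enzymes for the ribosomes of the cytosol and a second set, encoded in the nucleus and imported, for the ribosomes of mitochondria. In mammals many cytosolic synthetase genes are known targets of the transcription factor ATF4, which is made when amino acids are short or the unfolded protein response is active.

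Total counts per library ranged from 57406966 to 75065752, and the 44 members took from 0.367% to 0.644% of them. Replicate 1 of THP-1 DMSO and replicate 1 of U-937 DMSO stood apart, with 13.7% and 12.6% of their counts from mitochondrially encoded genes against 5.61% to 7.55% in the other 10 libraries. The median honokiol log2 fold changes of the cytosolic and mitochondrial classes were therefore also computed without these 2 libraries. The other medians below, such as those of FPKM and of the difference between the lines, were not. Of the myeloid markers, SPI1 was at least 53.3 FPKM and LYZ at least 82.8 FPKM in every library, while MPO was at most 0.17 FPKM in U-937 and at least 20.2 FPKM in THP-1. CD3E, a marker of T cells, was at most 0.04 FPKM.

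The cytosolic synthetase genes had a higher median level than the mitochondrial ones in all 4 groups. FPKM (fragments scaled to transcript length and library size) allows levels of different genes to be compared, and all levels below are on this scale. The median of the 18 cytosolic group means was 17.2 FPKM in THP-1 DMSO and 20.9 FPKM in U-937 DMSO, against 4.57 and 8.1 FPKM for the 17 mitochondrial genes. With honokiol the cytosolic medians were 25.6 and 28.7 FPKM and the mitochondrial ones 4.26 and 7.56 FPKM. FARSA, the catalytic subunit of the cytosolic phenylalanine enzyme, was highest under DMSO, with a mean of 63.5 FPKM in THP-1 and 119 FPKM in U-937. With honokiol EPRS1, the fused enzyme for glutamate and proline, had the highest mean, 78.8 FPKM in THP-1 and 89.1 FPKM in U-937.

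IARS2, the mitochondrial isoleucine enzyme, led its class in all 4 groups, with means of 36.5, 39.8, 40.8 and 40.0 FPKM in THP-1 DMSO, THP-1 honokiol, U-937 DMSO and U-937 honokiol. FARS2, the mitochondrial phenylalanine enzyme, was lowest in its class in each group, from 0.743 FPKM in THP-1 DMSO to 2.35 FPKM in U-937 DMSO. Among the 6 genes that are no synthetases, PSTK, the kinase that prepares seryl-tRNA for selenocysteine, ran from 0.18 to 0.41 FPKM in THP-1 and was left untested there by the filter on low values. Thus 43 of 44 members were tested in THP-1 and 44 of 44 in U-937.

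With honokiol WARS1 and AARS1, both cytosolic, had the most positive log2 fold changes of all members in both lines. FARSA, also cytosolic, had the most negative one in each line. The mitochondrial median lay near that of all genes for THP-1 only (0.04 beside −0.0011). For U-937 it lay below that of all genes (−0.12 beside 0.0164). No member passed an adjusted p of 0.05 with edgeR's quasi-likelihood test in either line, where 0.0411% of 14600 genes passed in THP-1 and 0.0947% of 13726 genes in U-937. WARS1 had the lowest adjusted p of all members, 0.266 for THP-1 and 0.0776 for U-937. With DESeq2 0 members passed in THP-1, where it called 3.5% of the genes to which it gave an adjusted p. In U-937 it called 6.12% of such genes and 7 members. These were AARS1, MARS1, SARS1, SEPSECS and WARS1 with higher and FARSA and VARS1 with lower values. The directions that follow are therefore given as values, with no call, and in bulk RNA fewer cells of a kind and less RNA per cell cannot be told apart.

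At an unadjusted p under 0.05, 7 members were higher and 0 lower with honokiol in THP-1, where 6.84% of all genes were higher and 6.22% lower. The 7 were the cytosolic AARS1, EPRS1, SARS1, VARS1, WARS1 and YARS1 and the amidotransferase subunit QRSL1. In U-937 8 members were higher, against 8.25% of all genes, and 6 were lower, against 8.44%. The 8 were the cytosolic AARS1, CARS1, IARS1, MARS1, SARS1 and WARS1 with GARS1 and SEPSECS, and the 6 were FARSA, RARS1, VARS1, KARS1, EARS2 and SARS2. By class, 6 of 18 cytosolic genes were higher in each line (33.3%), and 0 of 17 mitochondrial genes were higher in either line. With 17 genes, a count of 0 lies close to the 6.84% and 8.25% of all genes. In U-937 3 of 18 cytosolic genes (16.7%) and 2 of 17 mitochondrial genes (11.8%) were lower, and in THP-1 0 of either class.

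WARS1, the cytosolic tryptophan enzyme (chromosome 14, 100333790 to 100376343, minus strand), was at 16.1, 13.1 and 13.8 FPKM in THP-1 DMSO and at 19.1, 23.5 and 34.5 FPKM in THP-1 honokiol. In U-937 it was at 9.02, 7.36 and 7.41 FPKM with DMSO and at 21.1, 16.2 and 14.4 FPKM with honokiol. All honokiol libraries were above all DMSO libraries of their line, although those of THP-1 honokiol were widely spread. The log2 fold change was 0.77 (SE 0.23, adjusted p 0.266, edgeR) in THP-1 and 1.02 (SE 0.19, adjusted p 0.0776, edgeR) in U-937. Without replicate 3 of THP-1 honokiol the THP-1 value was 0.51. WARS1 is also known as an interferon-induced gene.

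AARS1, the cytosolic alanine enzyme (chromosome 16, 70251983 to 70289707, minus strand), was at 14.7, 14.9 and 17.4 FPKM in THP-1 DMSO and at 18.4, 24.9 and 33.7 FPKM in THP-1 honokiol. In U-937 it was at 10.9, 11.4 and 18.8 FPKM with DMSO and at 30.8, 30.03 and 27.0 FPKM with honokiol. The groups did not overlap in either line, and replicate 3 of U-937 DMSO stood closest to the treated libraries. The log2 fold change was 0.66 (SE 0.21, adjusted p 0.288, edgeR) in THP-1 and 1.02 (SE 0.20, adjusted p 0.0876, edgeR) in U-937, and without replicate 3 of THP-1 honokiol the THP-1 value was 0.42.

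SARS1, the cytosolic serine enzyme, ran from 19.9 to 22.6 FPKM in THP-1 DMSO and from 26.2 to 31.5 FPKM in THP-1 honokiol, and from 14.9 to 19.8 FPKM in U-937 DMSO and from 24.8 to 30.8 FPKM in U-937 honokiol. Its groups were separate in both lines as well, with a log2 fold change of 0.42 (SE 0.13) in THP-1 and 0.54 (SE 0.14) in U-937. YARS1, the cytosolic tyrosine enzyme, was at 11.4, 9.34 and 10.1 FPKM in THP-1 DMSO and at 12.4, 14.8 and 16.8 FPKM in THP-1 honokiol, without overlap and with a log2 fold change of 0.44 (SE 0.17, adjusted p 0.335, edgeR). In U-937 its log2 fold change was 0.52 (SE 0.23), and the groups overlapped because replicate 3 of U-937 DMSO was at 29.4 FPKM and replicate 3 of U-937 honokiol at 27.7 FPKM.

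**Figure D1:**
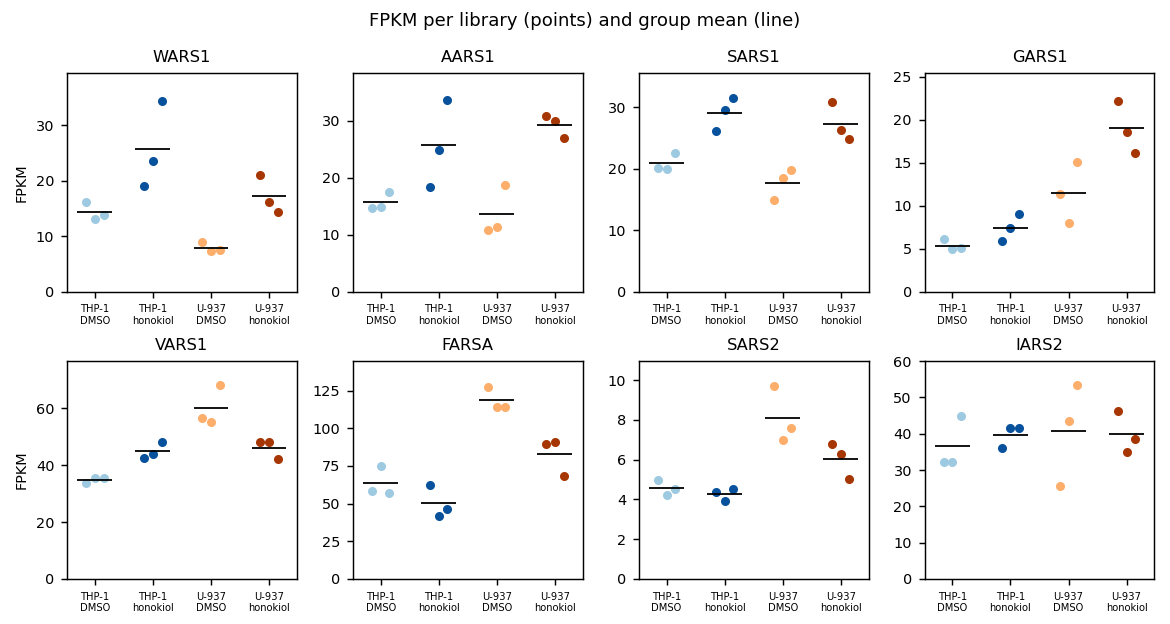
FPKM of 8 synthetase genes (vertical axes, FPKM, starting at 0) in the 12 libraries of the 4 groups (horizontal axes), with a point for each library and a line at the mean of the 3 libraries. WARS1, AARS1 and SARS1 had all honokiol libraries above all DMSO libraries of their line, VARS1 had them above in THP-1 and below in U-937, and IARS2 overlapped in both lines.

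GARS1, whose gene makes the glycine enzyme of both compartments, was at 11.4, 7.98 and 15.0 FPKM in U-937 DMSO and at 22.2, 18.6 and 16.1 FPKM in U-937 honokiol. The groups did not overlap, and the log2 fold change was 0.64 (SE 0.23, adjusted p 0.235, edgeR). In THP-1 it was 0.41 (SE 0.19), and the groups overlapped. KARS1, the lysine enzyme of both compartments, had a log2 fold change of 0.04 (SE 0.12) in THP-1 and −0.38 (SE 0.12) in U-937, where its mean was 37.3 FPKM with DMSO and 30.4 FPKM with honokiol.

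FARSA (chromosome 19, 12922479 to 12934037, minus strand) was the cytosolic gene with the most negative change in both lines. It was at 58.4, 74.7 and 57.3 FPKM in THP-1 DMSO and at 62.2, 42.0 and 46.7 FPKM in THP-1 honokiol, so the groups overlapped through replicate 1 of THP-1 honokiol. In U-937 it was at 128, 114 and 114 FPKM with DMSO and at 89.3, 90.9 and 68.3 FPKM with honokiol, without overlap. The log2 fold change was −0.39 (SE 0.18, adjusted p 0.411, edgeR) in THP-1 and −0.61 (SE 0.15, adjusted p 0.142, edgeR) in U-937. FARSB, which encodes the other subunit of the same enzyme, had log2 fold changes of 0.05 (SE 0.18) and −0.23 (SE 0.12) and stayed between 8.1 and 13.5 FPKM in all 12 libraries. HARS1, the cytosolic histidine enzyme, was the only member whose THP-1 libraries were all lower with honokiol, at 4.31, 4.69 and 4.03 FPKM with DMSO and 3.99, 3.68 and 3.47 FPKM with honokiol. Its log2 fold change was −0.28 (SE 0.13, adjusted p 0.413, edgeR) there and −0.22 (SE 0.14) in U-937. HARS1 overlaps HARS2 on the other strand, and whether counting used the strand is not given in the sources used here.

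Of the cytosolic enzymes, 7 are held with KARS1 in the multisynthetase complex, a large assembly in which several synthetases sit on scaffold proteins. The split of the members by this complex was made after their values were seen. Among the 8 complex genes the THP-1 and U-937 medians of the log2 fold change were 0.14 and 0.13. The other 12 cytosolic genes, GARS1 included, had medians of 0.33 and 0.43. Within the complex MARS1, the methionine enzyme, had the largest log2 fold change in U-937, 0.64 (SE 0.18), followed by EPRS1 with 0.45 (SE 0.22) and IARS1, the isoleucine enzyme, with 0.44 (SE 0.17). RARS1, the arginine enzyme, was at −0.31 (SE 0.13) in the same line. MARS1 overlaps the stress gene DDIT3 on the other strand, so its counts may hold reads of that gene, whose own values are given below. This limit is not particular to MARS1 and HARS1. Of the 44 members, 25 overlap a gene on the other strand, AARS1, FARSA, GARS1 and WARS1 among them, and 15 overlap a gene on the same strand.

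For the mitochondrial class no gene was higher and EARS2 and SARS2 in U-937 were lower at an unadjusted p under 0.05. Its median log2 fold change was 0.04 in THP-1 (range −0.38 to 0.34) and −0.12 in U-937 (range −0.52 to 0.22), beside −0.0011 and 0.0164 for all genes tested. The cytosolic medians were 0.21 (range −0.39 to 0.77) and 0.27 (range −0.61 to 1.02). Values above 0 were found for 13 of 18 cytosolic genes in THP-1 and 12 of 18 in U-937, and for 11 of 17 and 5 of 17 mitochondrial genes, where 49.9% and 52% of all genes lay above 0. Without replicate 1 of THP-1 DMSO, a library with a high mitochondrially encoded share, the mitochondrial median in THP-1 was −0.03 and the cytosolic one 0.27. Without replicate 1 of U-937 DMSO the medians in U-937 were −0.18 and 0.16, and without its replicate 2 the mitochondrial one was −0.06.

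Several mitochondrial genes lay below 0. LARS2, the leucine enzyme, was at 4.35, 4.54 and 4.34 FPKM in THP-1 DMSO and at 3.0, 4.63 and 3.4 FPKM in THP-1 honokiol, a log2 fold change of −0.32 (SE 0.18, adjusted p 0.469, edgeR). The groups overlapped, the value was −0.19 without replicate 1 and −0.52 without replicate 2 of THP-1 honokiol, and LARS2 was at −0.46 (SE 0.20) in U-937, also with overlap. In U-937 SARS2, the serine enzyme, was at 9.7, 6.99 and 7.61 FPKM with DMSO and 6.81, 6.3 and 5.04 FPKM with honokiol, with a log2 fold change of −0.52 (SE 0.20, adjusted p 0.265, edgeR), or −0.33 without replicate 1 of U-937 DMSO. EARS2, the glutamate enzyme, was at 3.81, 3.57 and 4.75 FPKM with DMSO and 2.8, 3.17 and 3.36 FPKM with honokiol, with a log2 fold change of −0.46 (SE 0.16, adjusted p 0.229, edgeR). These 2 genes did not overlap between the U-937 groups. RARS2 and VARS2 were higher in all 3 honokiol libraries of U-937, by 0.19 (SE 0.15) and 0.18 (SE 0.13) on the log2 scale.

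**Figure D2:**
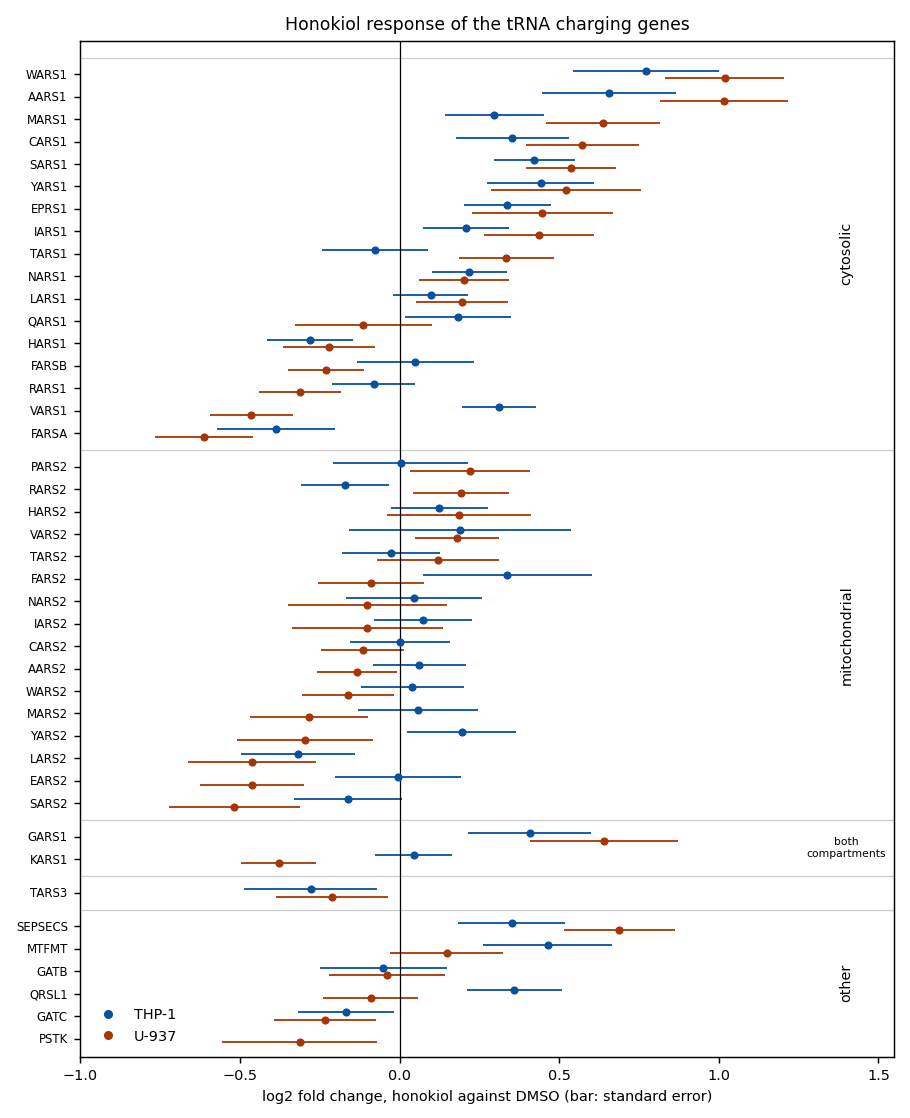
Log2 fold change of honokiol against DMSO (horizontal axis) for members by class (rows; genes not reported here are left out), with bars of 1 standard error, in THP-1 (blue) and U-937 (brown). WARS1 and AARS1 lie farthest to the right in both lines, FARSA lies to the left in both, VARS1 lies on opposite sides, and the mitochondrial genes run from −0.52 to 0.34.

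The members whose libraries were separate between treatments were mostly cytosolic. In THP-1 14 members had all honokiol libraries above all DMSO libraries, 11 of them cytosolic and 0 mitochondrial, and 1 had them all below, where 13% and 7.62% of all genes did. In U-937 12 members were above, 8 of them cytosolic and 2 mitochondrial, and 5 were below, where 16.7% and 7.5% of all genes did. The 5 below were FARSA, VARS1, KARS1, EARS2 and SARS2.

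The log2 fold changes of the 18 cytosolic genes in THP-1 and U-937, 2 comparisons with no library in common, had a Pearson's r of 0.80 and a Spearman's rho of 0.79 across genes. For the 17 mitochondrial genes r was 0.30 and rho 0.26, and for 12343 genes tested in both lines r was 0.30 and rho 0.32. Genes are not independent replicates, and both lines carry the same gene lengths and base composition, so these values are a description. Of the cytosolic genes 10 were above 0 in both lines, 3 below 0 in both (FARSA, HARS1 and RARS1) and 5 had opposite signs.

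Among the members that are no synthetases, SEPSECS, which completes selenocysteinyl-tRNA, was at 2.12, 2.83 and 3.22 FPKM in U-937 DMSO and at 5.01, 4.34 and 4.59 FPKM in U-937 honokiol. The groups did not overlap, and the log2 fold change was 0.69 (SE 0.17, adjusted p 0.142, edgeR). In THP-1 it was 0.35 (SE 0.17), also without overlap. MTFMT, which formylates the initiator methionyl-tRNA of mitochondria, was at 1.63, 1.51 and 2.05 FPKM in THP-1 DMSO and at 2.31, 2.52 and 2.62 FPKM in THP-1 honokiol, a log2 fold change of 0.46 (SE 0.20, adjusted p 0.384, edgeR). In U-937 its change was 0.15 (SE 0.18), and the groups overlapped. QRSL1, GATB and GATC, the subunits that turn glutamyl-tRNA into glutaminyl-tRNA in mitochondria, were at 0.36 (SE 0.15), −0.05 (SE 0.20) and −0.17 (SE 0.15) in THP-1 and at −0.09 (SE 0.15), −0.04 (SE 0.18) and −0.23 (SE 0.16) in U-937. TARS3, a paralogue of the cytosolic threonine enzyme TARS1, was at −0.28 (SE 0.21) and −0.21 (SE 0.18).

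Summed over its 18 genes, the cytosolic class was at 397, 404 and 406 FPKM in THP-1 DMSO and at 444, 465 and 510 FPKM in THP-1 honokiol. In U-937 the sums were 485, 521 and 610 FPKM with DMSO and 665, 597 and 562 FPKM with honokiol. The groups were separate in THP-1 and overlapped in U-937. The mitochondrial sums were 138 ± 8.74 FPKM (SD, n = 3) and 143 ± 7.09 FPKM in THP-1 and 185 ± 28.7 FPKM and 182 ± 11.7 FPKM in U-937, DMSO first, and overlapped in both lines. The ratio of the cytosolic to the mitochondrial sum was 2.73 to 3.03 in THP-1 DMSO and 3.12 to 3.54 in THP-1 honokiol, and 2.70 to 3.16 in U-937 DMSO and 3.1998 to 3.49 in U-937 honokiol. It did not overlap between treatments in either line. These sums weigh FARSA and EPRS1 most, since those genes have the highest levels.

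**Figure D3:**
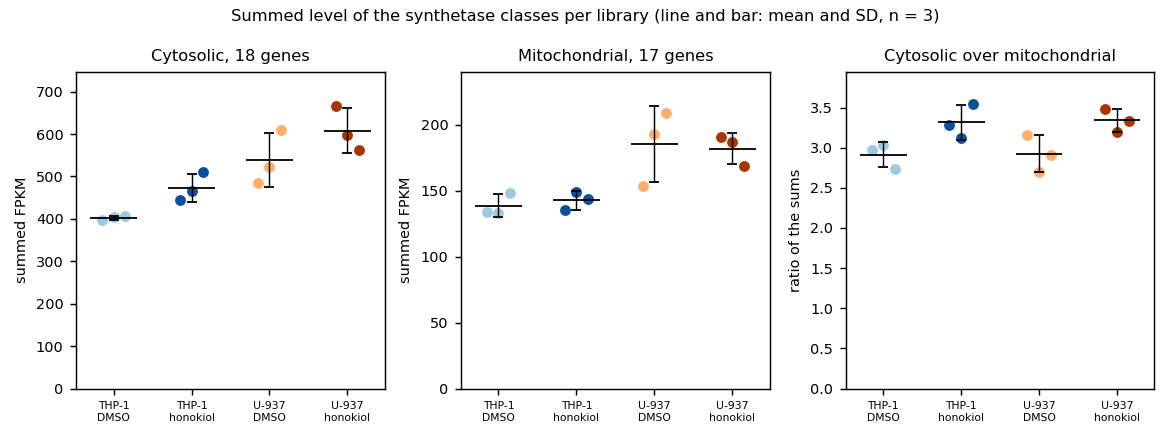
Summed FPKM of the 18 cytosolic genes (left) and the 17 mitochondrial genes (middle), and the ratio of the sums (right), in each of the 12 libraries (points), with the mean (line) and SD (bar) of the 3 libraries of a group. The ratio lies between 2.70 and 3.16 in the DMSO libraries and between 3.12 and 3.54 in the honokiol libraries.

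The enzymes for the same amino acid were then compared within each library, in 18 pairs of a cytosolic and a mitochondrial gene (EPRS1 was set against both EARS2 and PARS2, and FARSA and FARSB against FARS2). The median ratio of cytosolic to mitochondrial FPKM was 2.18 in THP-1 DMSO, 2.42 in THP-1 honokiol, 2.25 in U-937 DMSO and 3.68 in U-937 honokiol. The cytosolic gene was the higher in every library for 14, 15, 13 and 17 of the 18 pairs, in the same order. HARS1 against HARS2 was the pair with a mean ratio under 1 in all 4 groups, at 0.685, 0.517, 0.697 and 0.518, and these genes overlap on opposite strands.

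In U-937 several mean ratios were below 1 with DMSO and above 1 with honokiol. AARS1 against AARS2 had a mean ratio of 0.678 (range 0.572 to 0.858) with DMSO and 1.52 (range 1.38 to 1.68) with honokiol. That of MARS1 against MARS2 was 0.708 (range 0.513 to 0.842) and 1.33 (range 1.27 to 1.44), and that of IARS1 against IARS2 was 0.822 (range 0.726 to 1.004) and 1.15 (range 1.06 to 1.22). In each of these pairs the ranges of the 3 and 3 libraries were apart. The mean ratio was higher with honokiol in 14 of 18 pairs in THP-1, of which 3 had separate ranges, and in 13 of 18 pairs in U-937, of which 9 had. Ranges were separate in the other direction for 1 pair in THP-1, FARSA against FARS2, whose mean was 90.1 with DMSO and 52.2 with honokiol, and for 3 pairs in U-937. The 3 were FARSA against FARS2 (51.5 to 35.4), RARS1 against RARS2 (3.98 to 2.81) and VARS1 against VARS2 (4.31 to 2.74). EPRS1 and FARS2 each enter more than 1 pair. The same counts were not made over other pairs of genes, so these have no background beside them and are a description.

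**Figure D4:**
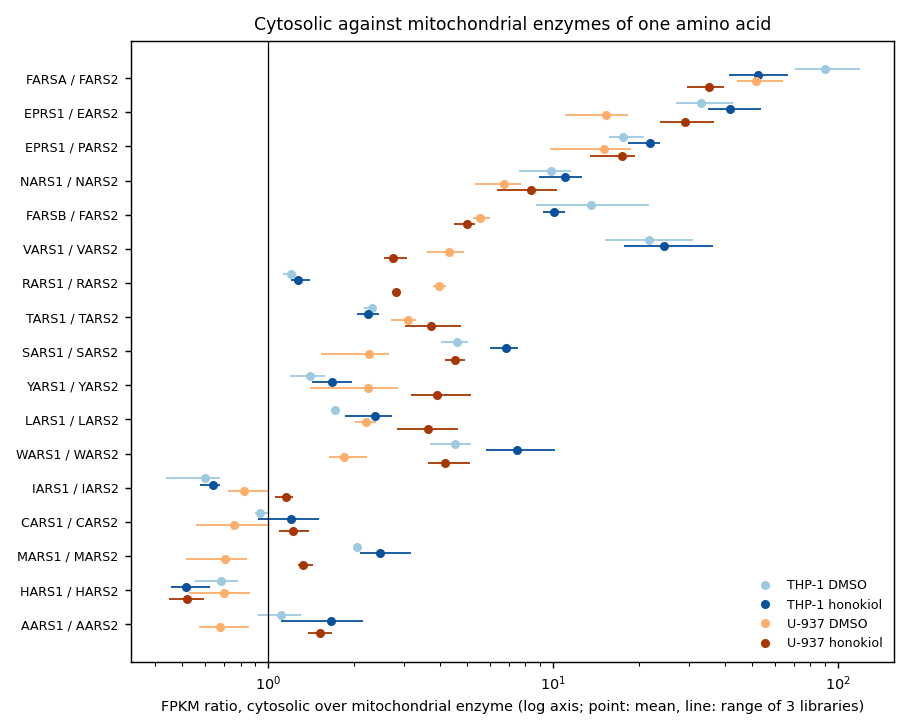
Ratio of the FPKM of the cytosolic to that of the mitochondrial enzyme for the same amino acid (horizontal log axis) by pair (rows; a pair not reported here is left out), as the mean (point) and the range (line) of 3 libraries in each of the 4 groups. In U-937 the pairs of AARS1, MARS1, CARS1 and IARS1 lie below a ratio of 1 on average with DMSO and above it with honokiol, and the VARS1 pair lies near 22 in THP-1 DMSO and near 4.31 in U-937 DMSO.

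More members passed between the lines than between the treatments. Under DMSO 29 of 44 members differed between U-937 and THP-1 at an adjusted p under 0.05 (edgeR, 1 fit of the 12 libraries), 25 higher and 4 lower in U-937, while 52.9% of 16283 genes did, 24.4% higher and 28.5% lower. Of the cytosolic genes 9 of 18 were higher and 1 lower, and of the mitochondrial genes 9 of 17 were higher and 1 lower. The median log2 difference was 0.31 for the cytosolic and 0.39 for the mitochondrial class, beside −0.0474 for all genes tested. This comparison uses the same DMSO libraries as both honokiol comparisons, and with 1 line on each side the line and its culture cannot be told apart.

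VARS2, the mitochondrial valine enzyme (chromosome 6, 30914205 to 30926459, plus strand), differed most. It was at 1.09, 1.84 and 2.33 FPKM in THP-1 DMSO and at 11.6, 15.4 and 15.3 FPKM in U-937 DMSO, a log2 difference of 2.97 (SE 0.30, adjusted p 6.8e-06, edgeR). PSTK was at 0.18, 0.26 and 0.29 FPKM in THP-1 DMSO and at 0.83, 1.02 and 1.3 FPKM in U-937 DMSO (2.05, SE 0.30). MTFMT was at 1.63, 1.51 and 2.05 FPKM against 4.9, 6.06 and 6.88 FPKM (1.73, SE 0.18), and FARS2 at 0.49, 0.93 and 0.81 FPKM against 1.99, 2.47 and 2.58 FPKM (1.61, SE 0.22). In each of these genes all U-937 libraries were above all THP-1 libraries. CARS2, MARS2, NARS2 and EARS2, the mitochondrial enzymes for cysteine, methionine, asparagine and glutamate, were also higher in U-937, by 1.36 (SE 0.14), 1.35 (SE 0.20), 1.21 (SE 0.24) and 1.06 (SE 0.18) on the log2 scale.

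Only 4 members were lower in U-937. RARS2, the mitochondrial arginine enzyme, was at 14.2, 13.5 and 12.5 FPKM in THP-1 DMSO and at 4.85, 5.74 and 5.38 FPKM in U-937 DMSO, a log2 difference of −1.38 (SE 0.13, adjusted p 4.01e-06, edgeR). QRSL1 was at 7.37, 6.82 and 7.27 FPKM against 3.37, 4.07 and 3.91 FPKM (−0.97, SE 0.14), and WARS1, with the values given above, was lower by 0.90 (SE 0.23) on the log2 scale. GATB was at 1.48, 1.17 and 1.44 FPKM against 1.02, 0.84 and 1.09 FPKM (−0.53, SE 0.19, adjusted p 0.0345, edgeR), and its call was lost with limma, without a filter, with the replicate block (adjusted p 0.0541, edgeR), without both DMSO libraries numbered 1, and without replicate 1 or 3 of THP-1 DMSO or replicate 2 or 3 of U-937 DMSO, each left out alone. QRSL1 and GATB are thus lower and the third subunit of their complex, GATC, higher in U-937, by 0.55 (SE 0.15, adjusted p 0.00765, edgeR). Of the cytosolic genes, CARS1, YARS1, FARSA and VARS1 were higher in U-937 by 1.045 (SE 0.18), 0.94 (SE 0.22), 0.86 (SE 0.18) and 0.73 (SE 0.11) on the log2 scale. AARS1, SARS1 and MARS1, all higher with honokiol, were at −0.25 (SE 0.22), −0.29 (SE 0.13) and −0.21 (SE 0.17) between the lines and did not pass.

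**Figure D5:**
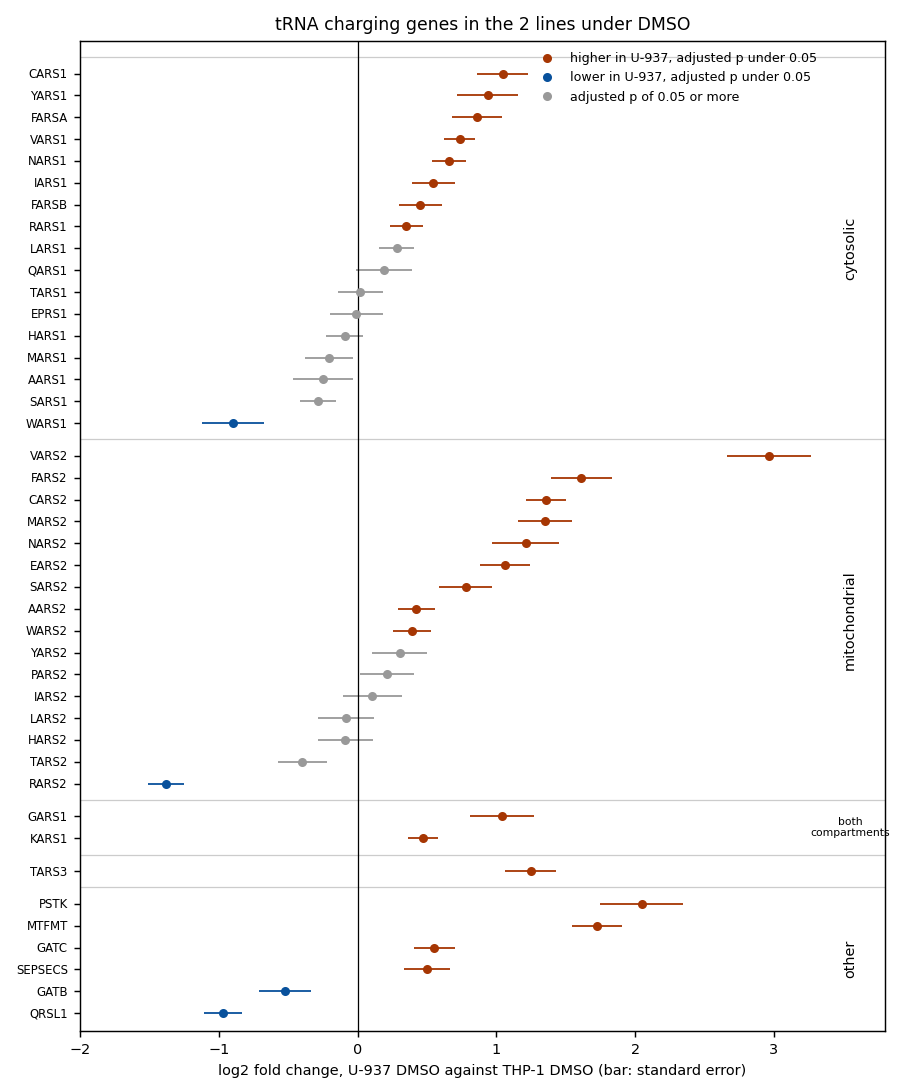
Log2 fold change of U-937 DMSO against THP-1 DMSO (horizontal axis) for members by class (rows; genes not reported here are left out), with bars of 1 standard error. Brown points are members higher and blue points the 4 members lower in U-937 at an adjusted p under 0.05, and grey points did not pass; VARS2 lies farthest to the right at 2.97 and RARS2 farthest to the left at −1.38.

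Whether the honokiol change itself differed between the lines was tested in the same fit, in which the line and a dose that may differ with it cannot be told apart. The test called 0 members with edgeR, 0.111% of all genes, and 3 members (9.37% of all genes) had an unadjusted p under 0.05, all with the lower value in U-937 (4.54% of all genes). With DESeq2 1 member, VARS1, was called, where 1.5% of all genes were. VARS1, the cytosolic valine enzyme (chromosome 6, 31777518 to 31795752, minus strand), was at 33.7, 35.4 and 35.5 FPKM in THP-1 DMSO and at 42.6, 44.1 and 48.2 FPKM in THP-1 honokiol. In U-937 it was at 56.6, 55.3 and 68.2 FPKM with DMSO and at 48.3, 48.1 and 42.3 FPKM with honokiol. The libraries of the treatments were thus separate in both lines, in opposite directions. How many of all genes show this was not counted. The log2 fold change was 0.31 (SE 0.12, adjusted p 0.332, edgeR) in THP-1 and −0.46 (SE 0.13, adjusted p 0.1598, edgeR) in U-937, and the difference was −0.79 (SE 0.16, adjusted p 0.107, edgeR). The other 2 members were KARS1 (−0.43, SE 0.15) and QRSL1 (−0.46, SE 0.20).

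Promoter sequences from RefSeq (GRCh38.p14, 250 bases before to 50 after the gene start) were matched by symbol for 34 of 44 members, 14 of them cytosolic and 14 mitochondrial. The other 10 had no entry, among them AARS2, LARS1, MTFMT, SEPSECS, TARS3, VARS1, VARS2 and YARS1. Each was searched on both strands for TGATGNAA, the C/EBP-ATF response element to which ATF4 binds with a C/EBP partner, and for TGACGTCA, the cyclic AMP response element. The letters TGATGNAA stood in 7 of the 34 members (20.6%), in 6 of 14 cytosolic (42.9%) and 1 of 14 mitochondrial genes (7.14%), beside 3.62% of 35116 promoters of the same length. TGACGTCA stood in 0 members and in 1.85% of all promoters, so no member held both.

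The 7 stretches are shown because they carry this match, each as 100 bases in the direction of the gene with the match in capitals. They lie at chr16:70289644-70289743 (AARS1, minus strand), chr11:3057394-3057493 (CARS1, minus), chr9:92293668-92293767 (IARS1, minus), chr12:57487998-57488097 (MARS1, plus), chr18:57621807-57621906 (NARS1, minus), chr5:33440895-33440994 (TARS1, plus) and chr12:32756045-32756144 (YARS2, minus) of GRCh38.p14.
AARS1: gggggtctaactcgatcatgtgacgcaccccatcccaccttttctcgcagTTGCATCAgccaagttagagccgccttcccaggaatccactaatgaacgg
CARS1: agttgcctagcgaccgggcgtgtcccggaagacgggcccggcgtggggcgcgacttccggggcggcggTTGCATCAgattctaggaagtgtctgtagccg
IARS1: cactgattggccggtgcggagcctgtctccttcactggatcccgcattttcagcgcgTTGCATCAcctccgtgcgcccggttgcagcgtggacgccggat
MARS1: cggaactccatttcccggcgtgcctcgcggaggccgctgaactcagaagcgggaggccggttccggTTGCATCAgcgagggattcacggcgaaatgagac
NARS1: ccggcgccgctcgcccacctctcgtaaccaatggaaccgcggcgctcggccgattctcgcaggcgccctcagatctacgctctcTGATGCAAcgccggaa
TARS1: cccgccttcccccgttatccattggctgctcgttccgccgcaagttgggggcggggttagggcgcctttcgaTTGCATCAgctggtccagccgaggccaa
YARS2: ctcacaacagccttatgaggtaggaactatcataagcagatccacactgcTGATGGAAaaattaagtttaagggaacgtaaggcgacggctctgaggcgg

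The capitals read TTGCATCA in AARS1, CARS1, IARS1, MARS1 and TARS1, which is TGATGCAA on the other strand, TGATGCAA in NARS1 and TGATGGAA in YARS2. The match began 2, 13 and 4 bases before the gene start in CARS1, IARS1 and MARS1, 2 and 14 bases past the first base of the gene in TARS1 and NARS1, and 187 and 197 bases before it in AARS1 and YARS2. The search itself fixed all letters of the match but the N, which was C in the 6 cytosolic genes. In 5 of these genes the match begins within 14 bases of the start. For 8 of the 34 members the RefSeq start lies more than 250 bases inside the gene span of the deposited table, by 12623 bases for MARS1 and 14202 bases for GARS1, and other starts of these genes were not searched.

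The 7 members with a match had a median log2 fold change with honokiol of 0.22 in THP-1 (range −0.08 to 0.66) and 0.44 in U-937 (range −0.30 to 1.02), with 6 of 7 above 0 in each line. The members without a match had a median of 0.04 in THP-1 (16 of 26 above 0) and −0.11 in U-937 (8 of 27 above 0). Within the cytosolic class, the 6 genes with a match had medians of 0.26 in THP-1 (5 of 6 above 0) and 0.50 in U-937 (6 of 6 above 0, range 0.20 to 1.02). The 8 cytosolic genes without one had medians of 0.12 in THP-1 (5 of 8 above 0) and −0.17 in U-937 (3 of 8 above 0, range −0.61 to 1.02). These are descriptions, with no test. WARS1, the gene with the highest value in both lines, had no match in its window, given here from 250 bases before to 29 bases past the first base (chr14:100376298-100376577, minus strand). GARS1 and SARS1 had none either.
WARS1: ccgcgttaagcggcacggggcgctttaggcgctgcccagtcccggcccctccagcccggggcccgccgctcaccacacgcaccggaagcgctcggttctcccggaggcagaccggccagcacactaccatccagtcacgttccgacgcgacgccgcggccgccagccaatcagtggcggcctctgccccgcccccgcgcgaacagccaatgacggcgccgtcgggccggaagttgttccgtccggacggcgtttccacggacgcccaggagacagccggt

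Genes that work beside the synthetases were taken from lists chosen with earlier results of these data known. None of their genes passed the adjusted p in a honokiol comparison with edgeR. Among 15 ATF4 and amino acid genes, 10 of 15 tested were higher at an unadjusted p under 0.05 in THP-1 and 12 of 14 in U-937, and 0 were lower, beside the 6.84% and 8.25% of all genes given above. Their median log2 fold change was 0.92 and 0.78. The list includes SLC7A11, which the study had reported as raised by honokiol in this sequencing, so these counts are a description and no independent support. SLC7A11, the cystine transporter, was at 1.28, 0.93 and 0.8 FPKM in THP-1 DMSO against 1.79, 3.31 and 3.71 FPKM in THP-1 honokiol, and at 2.63, 2.11 and 3.2 FPKM against 6.2, 7.34 and 8.97 FPKM in U-937. DDIT3, a stress transcription factor, was at 9.88, 16.1 and 13.3 FPKM against 24.4, 26.2 and 53.8 FPKM in THP-1, and at 4.76, 5.49 and 4.66 FPKM against 10.7, 18.4 and 15.0 FPKM in U-937. Both genes were separate between treatments in both lines, with log2 fold changes of 1.48 (SE 0.32) and 1.36 (SE 0.32) in THP-1 and 1.417 (SE 0.21) and 1.47 (SE 0.23) in U-937. SESN2 and TRIB3, which restrain growth signaling under stress, were at 0.61 (SE 0.25) and 0.94 (SE 0.31) in THP-1 and 1.302 (SE 0.22) and 0.68 (SE 0.13) in U-937.

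The remaining lists held few genes at an unadjusted p under 0.05. Of the 3 scaffolds of the multisynthetase complex, AIMP1 was higher in THP-1 (log2 fold change 0.51, SE 0.21) and none was in U-937, with medians of 0.11 and −0.27. Of the 5 cytosolic elongation factors, EEF1G was higher in U-937 (0.53, SE 0.19), with medians of 0.21 and 0.18. Of the 10 mitochondrial translation factors, TUFM, which brings charged tRNAs to the mitochondrial ribosome, was lower in U-937 (−0.45, SE 0.13), with medians of 0.07 in both lines. Of the 4 trans-editing and related factors, such as DTD1, which takes D-amino acids off tRNAs, the test covered 4 for U-937 and 3 for THP-1, and none was past this limit, with medians of 0.24 and −0.09.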

How the data were processed

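The 12 mRNA libraries were grouped by line and treatment as the labels give them. The submitters' processing notes name Bowtie 0.12.2, HISAT2 2.0, StringTie 1.3.0 and mm8, a mouse build, without a role. The gene identifiers are human, and 44 of 44 members overlapped their GENCODE 29 position on GRCh38. The labels and the study's methods name different sequencers, and the series text describes a microarray.

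The authors deposited 2 values per gene in each library, an FPKM, scaled by them to transcript length and library size, and a count that they did not normalize. The deposited counts are whole numbers, but 4 was a more frequent low value than 3 or 5, what 1 count stands for is not given in the sources used here, and the totals may not be numbers of fragments. Strand and annotation are not given in the sources used here. The table's column names abbreviate line and treatment, with T or U before C or H and the replicate number, and were matched to the sample titles.

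Counts were tested with edgeR 4.0.16 (quasi-likelihood, TMM, R 4.3.3) in each line, for genes that reached 0.5 FPKM in 3 or more of its 6 libraries. The DMSO groups and the difference between the lines were tested in 1 fit of 12 libraries. P-values were adjusted by the method of Benjamini and Hochberg over all genes tested. SE is the standard error from the fit, and groups do not overlap where every FPKM of one treatment is above every FPKM of the other. The tests were also run on simulated counts with planted changes larger than those of nearly all members. That check asked for the right direction and does not cover smaller changes. Alternatives were limma 3.58.1 on log2(FPKM + 0.5) and log2(FPKM + 0.1), DESeq2 1.42.0, RLE size factors, no filter, an FPKM of at least 1, counts divided by 4, a replicate block, 1 fit of all libraries and each library left out. Leaving out both DMSO replicates 1 was added after the values were seen.

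Members and lists were chosen with earlier results of these data known. Values per library are given for the 4 highest and 4 lowest log2 fold changes in each line, the 4 largest differences in each direction between the DMSO groups, members called, and the 4 genes of lowest p in a related list or fewer; SARS1 was added after its values were seen. Some results that this rule covers are not reported here, although counts, medians and sums over the classes include all members.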

Additional observations from a re-analysis of the deposited data

Results flagged for a closer look

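VARS1 was the member whose 3 honokiol libraries were all above the DMSO libraries in THP-1 and all below them in U-937, with a log2 fold change of 0.31 and −0.46. It was picked for this pattern, and how many of all genes show it was not counted. Taken line by line, 13% of all genes were all above in THP-1 and 7.5% all below in U-937. The difference of the VARS1 change between the lines was tested and gave an adjusted p of 0.107 with edgeR and 0.000281 with DESeq2. With each library left out in turn, the VARS1 log2 fold change in U-937 ran from −0.53 to −0.40. Groups of 3 libraries are too small for a test of single outlying libraries.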

How the results depend on the processing

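With edgeR and limma no member passed in a honokiol comparison or in the difference between the lines under any alternative, single libraries left out included. DESeq2 called 7 members in U-937 and 1 in the difference, and the cause was not tested. In 1 fit of all libraries the lowest adjusted p of a member was 0.209 for THP-1 and 0.0507 for U-937 (edgeR). Between the DMSO groups 26 to 29 members passed under the other settings, and 21 to 30 with a library left out. The mitochondrial median in THP-1 was −0.0298 without replicate 1 of THP-1 DMSO, with or without replicate 1 of U-937 DMSO. In U-937 it was −0.0272 with limma at a pseudocount of 0.5 and −0.0283 at 0.1, where the median of all genes was 0.0941 and 0.108. With libraries left out, the lowest and highest cytosolic medians were 0.19 and 0.27 for THP-1 and 0.16 and 0.39 for U-937, and the mitochondrial ones −0.0298 and 0.0786, and −0.18 and −0.06. Of the 8 members with the highest and lowest values in each honokiol comparison and between the DMSO groups, none changed its sign. Within a line, the deviations of DMSO and honokiol libraries with the same replicate number had an r of −0.184 to 0.128. Those with different numbers had an r of −0.126 to 0.261, so the numbers gave no sign of pairs there. Between the lines under DMSO, r was 0.095, 0.0282 and 0.113 for the same number and −0.126 to 0.0348 for different numbers. Whether DMSO libraries with the same number share a batch was not tested. With the replicate block 0 members passed in THP-1, U-937 and the difference, and 28 between the DMSO groups. With the counts divided by 4, 0, 0, 29 and 0 members passed in the same comparisons, in the order THP-1, U-937, DMSO groups and difference.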
